A study of Mus musculus with 3 samples.

Results

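The desmosomal cadherins and 2 proteins of the desmosomal plaque were followed across the keratinocytes of mouse dorsal skin. The 10 genes were taken by symbol, and each matched 1 of the 33696 genes of every library: the desmogleins Dsg1a, Dsg1b, Dsg2, Dsg3 and Dsg4, the desmocollins Dsc1, Dsc2 and Dsc3, the plakophilin Pkp1 and the desmoplakin Dsp. Whole skin of female C57BL/6 mice aged 9 weeks was dissociated and measured by droplet single-cell RNA sequencing of transcript 3′ ends. The CIA+VFX group was the chemotherapy-induced alopecia model given venlafaxine (VFX), an antidepressant that inhibits serotonin and noradrenaline reuptake. The CIA group was the same model without venlafaxine, and the Cont group received vehicle. In all groups the area taken was skin depilated with wax strips. Each group was 1 library of skin pooled from mice whose number was not stated, so n = 1 per group. No difference between groups has a replicate check, no test was possible, and every interval below covers counting error only. The drug, dose and sampling day of the model were not given in the sources used here.

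Desmosomes are spot-like junctions that tie the keratin filaments of neighbouring cells together. Desmogleins and desmocollins are the cadherins that span the membrane and adhere between cells. Inside the cell, plakoglobin and plakophilins bind their tails, and desmoplakin links this plaque to keratin. In skin the cadherins change with position: Dsg3 and Dsc3 are known from the basal layers, Dsg1 and Dsc1 from the upper layers, and Dsg4 from the hair shaft. Mouse Dsg1a, Dsg1b and Dsg1c are close copies of each other, so reads at their 3′ ends may have been divided among the copies or dropped, and their values are uncertain.

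Keratinocytes were recognised in each cell by marker genes that hold none of the 10 members. The gate left 6311 CIA+VFX, 4048 CIA and 4095 Cont keratinocytes, which were 37.9%, 24.4% and 32.4% of the cells kept in each library. Their median depth was 7591 UMIs (unique molecular identifiers, counted molecules) per cell in CIA+VFX, 7089.5 in CIA and 11852 in Cont, so Cont was the deepest. Before the gate, 75 to 110 barcodes were shared by each pair of libraries, under 1% of either. Each keratinocyte was placed in 1 of 8 classes by its strongest marker list. The class names mean cells like that layer by markers alone, and 34.6% to 36.6% of keratinocytes per library joined no class. The matrix and hair shaft class held 258 CIA+VFX, 117 CIA and 156 Cont cells, the inner root sheath class 648, 297 and 771, and the suprabasal class 239, 132 and 68. The 10 leading genes of each class by fold held at least 2 of its own markers and none of another class. Those markers placed the cells, so this is no check on the class names. The contractile genes Tagln and Myl9 also stood among the leading genes of the bulge and outer root sheath class. The stress-related Sprr1b and Sprr2f stood among those of the suprabasal class. In the bulge and outer root sheath class the median of the basal markers was above that of its own. Per 10000 UMIs it was 28.6 against 20.2 in CIA+VFX, 27.9 against 22.1 in CIA and 27.4 against 17.1 in Cont. In the upper follicle class this held in CIA (51.8 against 39.3), not in CIA+VFX (35.7 against 49.6) or Cont (24.7 against 63.1).

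The members differed from one another mainly in where they were found. Levels are given as CPM, UMIs per 1000000 UMIs of the same cells. Because only 3′ ends were counted, CPM does not depend on transcript length and can be set side by side between genes, apart from differences in capture. Summed over all keratinocytes, Dsp was highest, with 971 CPM in CIA+VFX, 979 in CIA and 965 in Cont. The 10 genes together held 1981 CPM in CIA+VFX, 1976 in CIA and 2062 in Cont, and Dsp made up 49.0%, 49.5% and 46.8% of this. Dsc3 came second, and Dsc2 was the lowest member at 4.42 CPM in CIA+VFX, 4.81 in CIA and 5.68 in Cont.

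**Figure D1:**
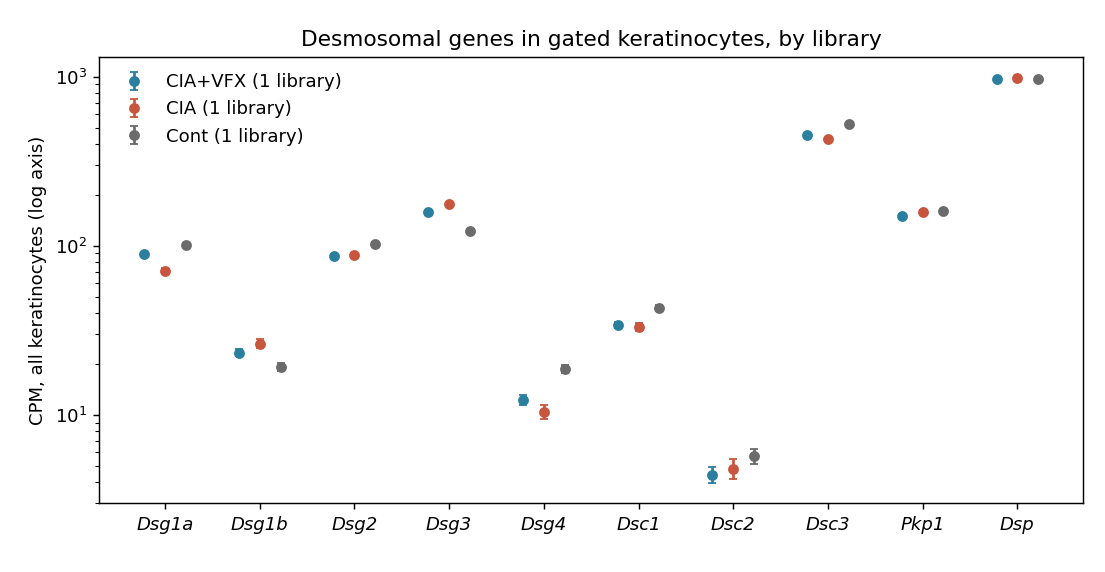
Level of each member in all gated keratinocytes, in CPM on a log axis, with exact Poisson intervals (95%, counting error only), for CIA+VFX (left), CIA and Cont (right) with 1 library each. Dsp lies between 965 and 979 CPM in the 3 libraries, while Dsg3 is highest in CIA and Dsg4 is highest in Cont.

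Dsg1a was the desmoglein of the differentiated epidermis in these cells. In the suprabasal class it reached 560.3 CPM in CIA+VFX, 445 in CIA and 592 in Cont. The next class, inner root sheath, held 188 CPM in CIA+VFX, 196 in CIA and 214 in Cont, a mean 2.67-fold lower. In the basal class it was at 32.2 CPM in CIA+VFX, 16.9 in CIA and 19.0 in Cont. The companion layer and upper follicle classes lay between, and their ranges over libraries overlapped. Dsg1b, its neighbour and close copy, was also highest in the suprabasal class, with 116 CPM in CIA+VFX, 131 in CIA and 59.0 in Cont.

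Dsg2, a desmoglein of simple and proliferating epithelia, had the opposite distribution. It was highest in the basal class, with 138 CPM in CIA+VFX, 129 in CIA and 164 in Cont. In the bulge and outer root sheath class it held 127 CPM in CIA+VFX, 113 in CIA and 141 in Cont, which overlapped the basal range. It was lowest in the suprabasal class, where the mean over libraries was 19.1 CPM, 7.49-fold under the basal mean. Dsg3, the desmoglein known as the main target of pemphigus vulgaris autoantibodies, was high in 3 classes whose ranges overlapped. Its means over libraries were 294 CPM in the upper follicle, 246 in the basal class and 242 in the companion layer. It was lower in the inner root sheath, where the mean was 38.3 CPM.

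Dsg4, whose loss causes fragile, sparse hair in mice and humans, had its highest level in the hair shaft. The matrix and hair shaft class held 223 CPM in CIA+VFX, 253 in CIA and 316 in Cont, and its mean was 19.6-fold above that of the companion layer, the next class. This class, with 258 CIA+VFX, 117 CIA and 156 Cont cells, gave 595 of the 882 Dsg4 UMIs of CIA+VFX keratinocytes, 274 of 449 in CIA and 684 of 1249 in Cont. The companion layer class gave 60 Dsg4 UMIs in CIA+VFX, 57 in CIA and 156 in Cont, the inner root sheath class 46, 30 and 144, and cells in no class 139, 81 and 258. In the upper follicle class 2 Dsg4 UMIs were counted in CIA+VFX, 1 in CIA and 1 in Cont, and in the bulge and outer root sheath class 2, 1 and 0.

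Among the desmocollins, Dsc3 was broad and Dsc1 was restricted. Dsc3 had its highest mean in the suprabasal class (775 CPM) and its lowest in sebocytes (108 CPM), and it was the main desmocollin in every class and library. In the basal class it made up 99.1% of desmocollin UMIs in CIA+VFX, 99% in CIA and 99.1% in Cont. Dsc1, known from the granular layer and the inner root sheath, held 162 CPM in CIA+VFX, 205 in CIA and 135 in Cont in the inner root sheath class. Its suprabasal levels of 161 CPM in CIA+VFX, 191 in CIA and 105 in Cont overlapped these, and the basal mean was 1.03 CPM. Dsc2, a desmocollin of many epithelia and of the heart, was scarce throughout and highest in the matrix and hair shaft class, with 15 CPM in CIA+VFX, 14.8 in CIA and 17.1 in Cont from 40, 16 and 37 UMIs.

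Both plaque genes were present in every class and followed the same order at its ends. Pkp1, which binds desmoplakin and strengthens desmosomes in stratified epithelia, was highest in the suprabasal class, with 352 CPM in CIA+VFX, 398 in CIA and 372 in Cont. Dsp was also highest there, with 2248 CPM in CIA+VFX, 2004 in CIA and 1932 in Cont. In sebocytes, lipid-producing cells of the sebaceous gland, Dsp was lowest, with 341 CPM in CIA+VFX, 340.0 in CIA and 295 in Cont. By mean over libraries, sebocytes were also the lowest class for Dsg1a, Dsg1b, Dsg3, Dsc2, Dsc3 and Pkp1. For Dsg1b and Dsc2 their range over libraries overlapped that of the bulge and outer root sheath class. The class with the highest mean stayed the same for all 10 genes under each of the 9 alternatives computed for it. Those that changed only the scaling act on all classes of a library alike, so they could not reorder classes within it.

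**Figure D2:**
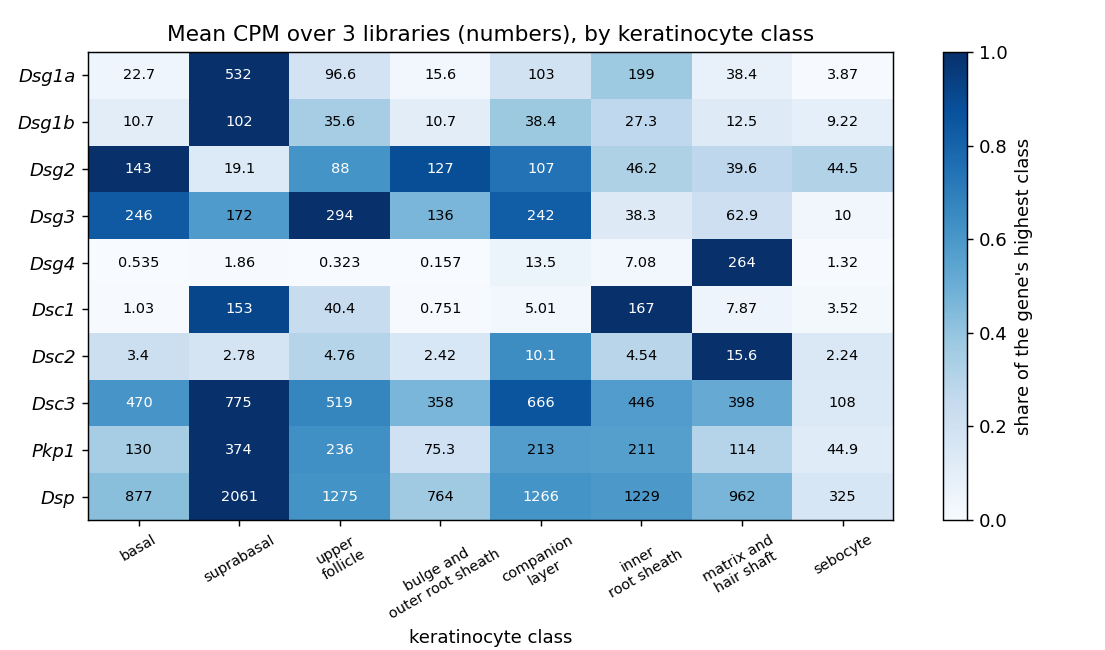
Mean CPM over the 3 libraries of each member (rows) in each keratinocyte class (columns), printed in the cells, with shading as a share of the gene's highest class. Dsg4 stands in the matrix and hair shaft column at 264 CPM, Dsg2 is lowest in the suprabasal column at 19.1 CPM, and 5 genes (Dsg1a, Dsg1b, Dsc3, Pkp1, Dsp) are highest in that column.

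The level of the class's own markers ordered several members within a class. The cells of each class were split into 3 bins (lowest, middle and highest) by that level, with equal numbers of cells over the 3 libraries together, a step chosen after the class values had been seen. In the inner root sheath class Dsc1 held 30.4 CPM in the lowest bin, 131 in the middle and 323 in the highest in CIA+VFX, 17.2, 73.7 and 401 in CIA, and 29.9, 108 and 247 in Cont. Dsg3 ran the other way, with 73.6, 38.9 and 9.33 CPM in CIA+VFX, 59.2, 39.4 and 11.2 in CIA, and 75.2, 44.9 and 14.0 in Cont. Dsg1a ran with Dsc1: its highest bin held 299.8 CPM in CIA+VFX, 321 in CIA and 314 in Cont, against 76.1, 53.8 and 103 in the lowest bin. Cells with more of the inner root sheath markers had more Dsc1 and Dsg1a and less Dsg3 in all 3 libraries. In the suprabasal class Dsc1 and Dsg1a were again higher and Dsg3 lower in the highest than in the lowest bin in each library, although the highest bin held only 11 Cont cells, against 82 CIA+VFX and 54 CIA cells.

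**Figure D3:**
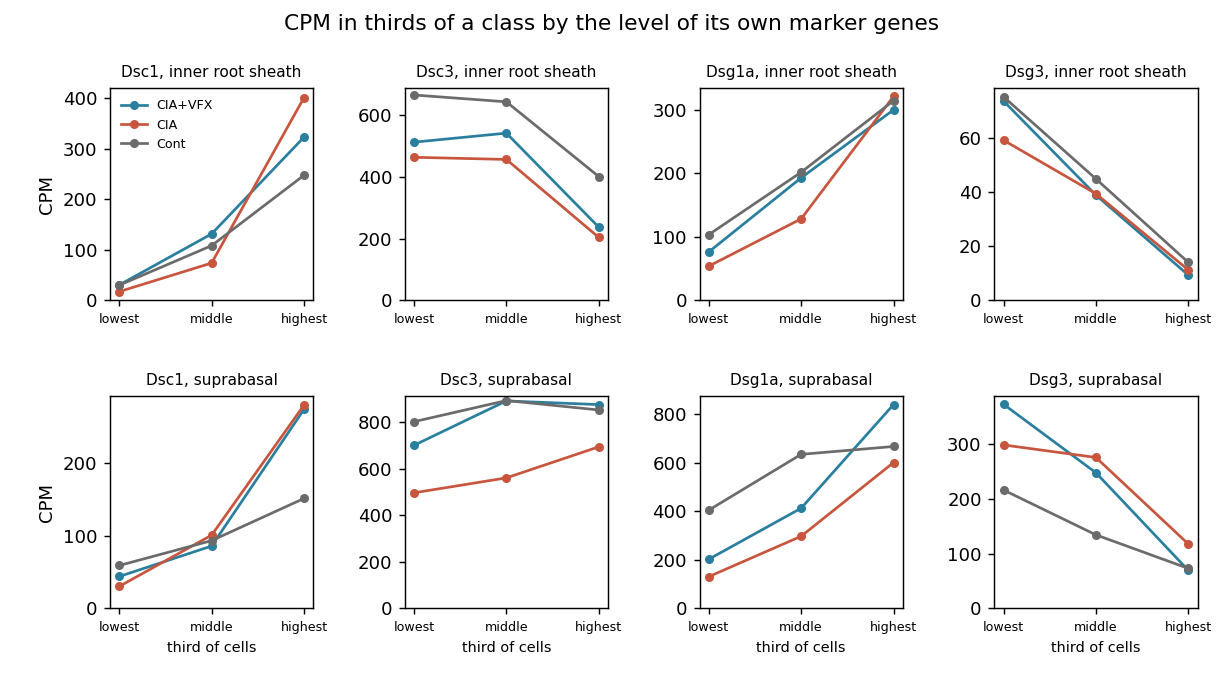
CPM of Dsc1, Dsc3, Dsg1a and Dsg3 in 3 bins of the inner root sheath (top) and suprabasal (bottom) cells by the level of the class's own marker genes, 1 line per library. Dsc1 is at 323 CPM in CIA+VFX, 401 in CIA and 247 in Cont in the highest inner root sheath bin, and Dsg3 is lower in the highest than in the lowest bin of both classes.

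The desmoglein make-up of a class summed these patterns. In the basal class Dsg3 gave 60.1% of desmoglein UMIs in CIA+VFX, 63.7% in CIA and 49.7% in Cont (exact interval 47.9% to 51.4%), and Dsg2 gave 30.3%, 30.1% and 42.1%. In the suprabasal class Dsg1a gave 62.6% in CIA+VFX, 57.5% in CIA and 72.9% in Cont, and Dsg1b 12.9%, 17.0% and 7.27%. In the matrix and hair shaft class Dsg4 gave 59.3% in CIA+VFX, 63.6% in CIA and 66.0% in Cont. Both libraries of the alopecia model therefore had a larger Dsg3 share and a smaller Dsg2 share in basal cells than Cont, by more than counting error.

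**Figure D4:**
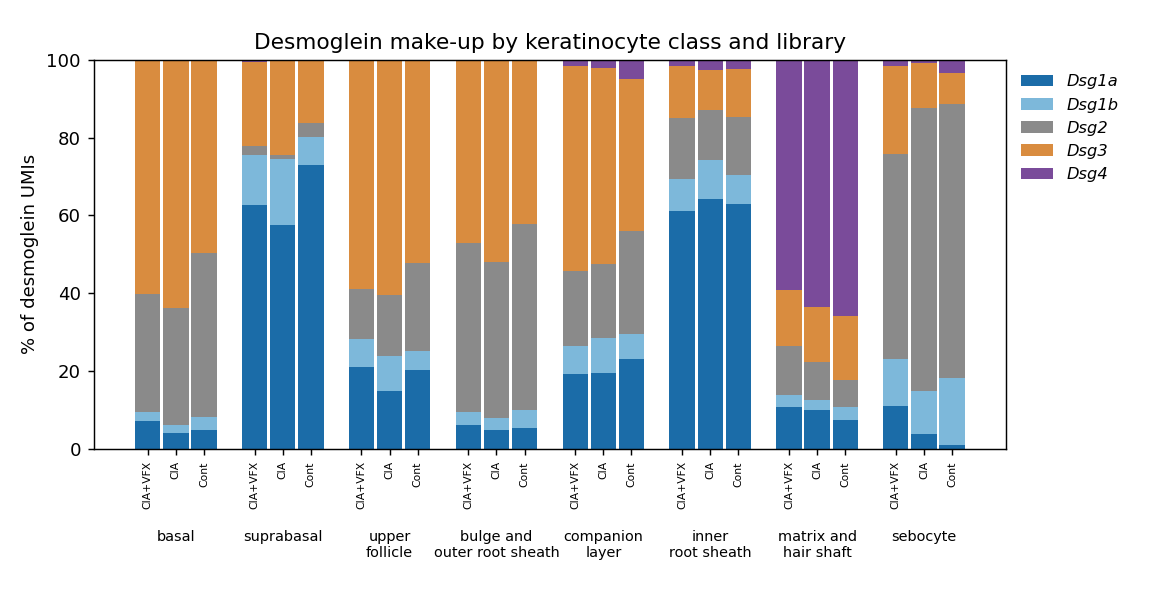
Share of desmoglein UMIs from each of the 5 genes, in percent, per keratinocyte class, with CIA+VFX (left), CIA and Cont (right) in each class. Dsg1a leads in the suprabasal and inner root sheath classes, Dsg3 with Dsg2 in the basal class, and Dsg4 in the matrix and hair shaft class at 59.3% in CIA+VFX, 63.6% in CIA and 66.0% in Cont.

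Set against Cont, CIA keratinocytes had less Dsg4 and Dsg1a and more Dsg3 and Dsg1b, while Dsp and Pkp1 were nearly level. Dsg4 was at 10.4 CPM in CIA and 18.8 in Cont, 1.80-fold lower (interval 1.61 to 2.01). Dsg3 was at 176 CPM in CIA and 122 in Cont, 1.45-fold higher (log2 0.53), and Dsg1b at 26.3 CPM in CIA and 19.2 in Cont, 1.37-fold higher. Dsg1a was at 71.3 CPM in CIA and 101 in Cont, 1.41-fold lower, and Dsc3 at 428 CPM in CIA and 526 in Cont, 1.23-fold lower. Pkp1 was at 159 CPM in CIA and 160 in Cont, a log2 ratio of -0.01, and Dsp at 979 CPM in CIA and 965 in Cont, a log2 ratio of 0.02; the sign of both changed under some alternatives. Fewer cells of a type and less RNA per cell cannot be told apart in such sums.

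At the limit of a 1.5-fold difference, 0 of the 10 members were higher in CIA than in Cont, beside 14.8% of 16031 measured genes. Only Dsg4 was lower, beside 5.03% of all measured genes. The median log2 ratio of the members was -0.23, against 0.07 for all measured genes. The Dsg4 difference was under 1.5-fold when each cell was thinned to 2000 UMIs (log2 -0.38) or given equal weight (log2 -0.29). Dsg1a was past the limit after thinning (log2 -0.71), but only 1.16-fold lower (log2 -0.21) with the classes weighted as in Cont. The Dsg4 difference was also smaller with another weighting of the classes, and the part of the cell mix was not tested. With the classes weighted in each library as in Cont, Dsg4 was 1.36-fold lower in CIA (log2 -0.45), and within the matrix and hair shaft class it was at 253 CPM in CIA and 316 in Cont (log2 -0.32). That class was 2.89% of keratinocytes in CIA and 3.81% in Cont. Dsc1, at 33.1 CPM in CIA and 42.9 in Cont (log2 -0.37), changed sign with the classes weighted as in Cont. It was then 1.44-fold higher in CIA (log2 0.52). The inner root sheath class, which carries most Dsc1, was 7.34% of CIA and 18.8% of Cont keratinocytes.

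Within classes, CIA and Cont differed at least 1.5-fold for some members, and each of these differences was under 1.5-fold in at least 1 alternative. In the suprabasal class 2 of 7 measured members were higher, beside 11% of 6734 genes: Dsg1b at 131 CPM in CIA and 59.0 in Cont (2.22-fold) and Dsc1 at 191 in CIA and 105 in Cont (1.82-fold). The suprabasal markers moved with them, with a median of 255 per 10000 UMIs in CIA cells and 167 in Cont cells. In the middle bin by those markers Dsg1b was at 99 CPM in CIA and 67.1 in Cont (log2 0.56) and Dsc1 at 101 in CIA and 93.1 in Cont (log2 0.11), both under 1.5-fold. No other alternative computed was under 1.5-fold for Dsg1b or Dsc1 in this class. The highest log2 ratios among the alternatives were 1.40 for Dsg1b and 2.46 for Dsc1, and the part of marker level was not tested. In the companion layer 2 of 10 members were higher, beside 12.9% of genes, and 1 was lower, beside 8.62%. Dsg3 was there at 274 CPM in CIA and 167 in Cont (1.64-fold), Dsg1b at 49.1 in CIA and 27.6 in Cont (1.78-fold), and Dsg4 at 11.3 in CIA and 21.2 in Cont (1.87-fold lower). The companion markers moved with them: their median was 54.8 per 10000 UMIs in CIA cells and 21.5 in Cont cells. Among companion cells in the lowest bin by those markers, Dsg3 was at 94.5 CPM in CIA and 113 in Cont (log2 -0.26), and Dsg1b was lower in CIA in the lowest and highest bins (log2 -0.68 and -0.28). The Dsg1b and Dsg4 differences also changed sign when each cell was thinned to 2000 UMIs (log2 -0.02 and 0.05).

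In the inner root sheath class 1 of 10 members was higher in CIA, beside 5.85% of 11114 genes, and 2 were lower, beside 6.49%. Dsc1 was at 205 CPM in CIA and 135 in Cont, 1.52-fold higher, but it was lower in CIA in the lowest and middle bins by marker level (log2 -0.80 and -0.55) and higher in the highest (log2 0.70). The median of the class markers was 88.3 per 10000 UMIs in CIA cells and 69.2 in Cont cells. Dsc3 was at 346 CPM in CIA and 567 in Cont, 1.64-fold lower, and it was lower in CIA in each bin (log2 -0.52, -0.49 and -0.98). Dsc1 accordingly gave 36.9% of the desmocollin UMIs of this class in CIA and 19.1% in Cont. Dsc2, at 15 UMIs in CIA and 115 in Cont, was 1.65-fold lower with an interval that included no difference.

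In the upper follicle class Dsg1b was 1.68-fold higher in CIA (42.8 CPM in CIA and 25.6 in Cont), and it was the only one of 8 measured members at least 1.5-fold higher, beside 14.3% of genes. After thinning this Dsg1b log2 ratio was 0.07, and with equal weight per cell 0.45. Dsg2 was 1.59-fold lower (75.0 CPM in CIA and 119 in Cont); it was lower in each bin of the class, but under 1.5-fold in the lowest bin (log2 -0.31) and with equal weight per cell (log2 -0.40). Dsc1 was 1.53-fold lower (27.0 CPM in CIA and 41.2 in Cont), beside 12.5% of genes lower, and under 1.5-fold after thinning (log2 -0.49). Here CIA cells carried more basal markers, with a median of 51.8 per 10000 UMIs in CIA and 24.7 in Cont, whose part in these differences was not tested. In sebocytes Pkp1 was 1.69-fold higher, at 53.0 CPM in CIA and 31.4 in Cont, the only call among 4 measured members, beside 12.6% of genes higher and 20% lower. The sebocyte markers moved with it (median 79.8 per 10000 UMIs in CIA and 54.0 in Cont), and in the lowest bin by those markers the Pkp1 log2 ratio was 0.23. This ratio was 0.57 with no minimum lead between classes, but past 1.5-fold in the middle and highest bins. Its highest value among the alternatives was 1.70. In the basal, bulge and outer root sheath, and matrix and hair shaft classes no measured member (8, 7 and 8 of them) was 1.5-fold apart in CIA against Cont, beside 15.1%, 15.7% and 9.17% of genes higher and 6.22%, 3.98% and 5.84% lower.

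**Figure D5:**
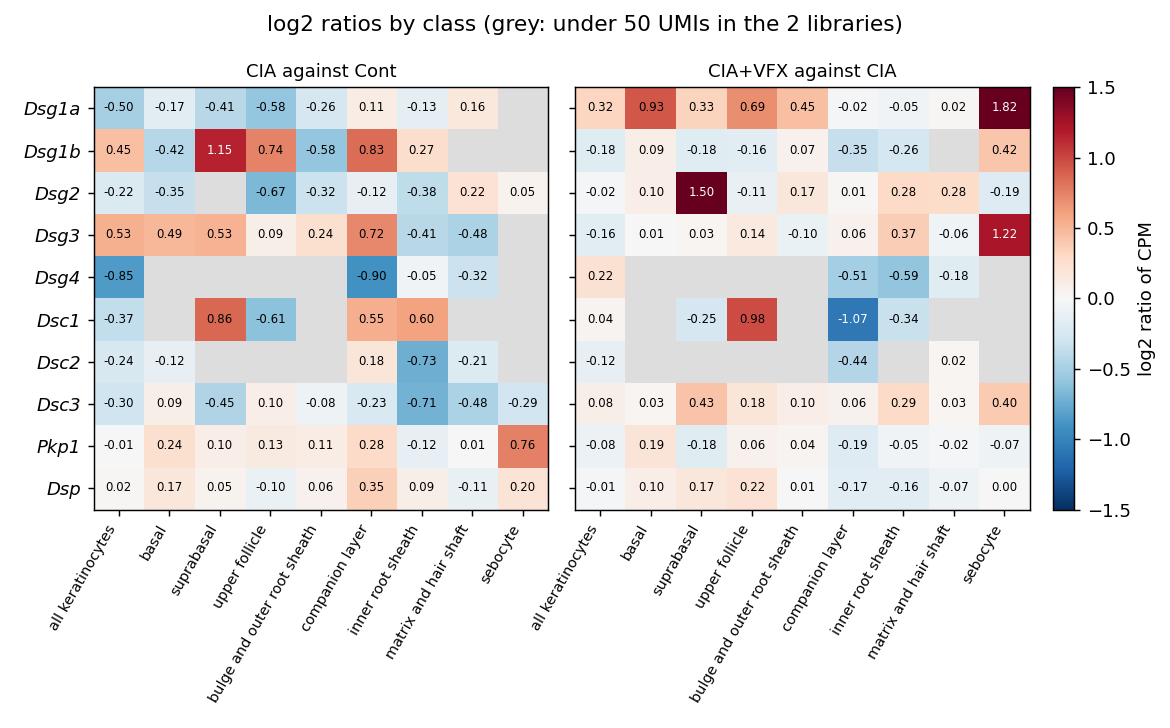
The log2 ratio of CPM for each member (rows) in all keratinocytes and each class (columns), CIA against Cont (left panel) and CIA+VFX against CIA (right panel), with red for higher in the group named first. Grey cells had under 50 UMIs in the 2 libraries; the Dsp row stays within -0.11 to 0.35 on the left and -0.17 to 0.22 on the right.

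Venlafaxine in the model was set against the model alone, so this comparison shares the CIA library with the one above. Over all keratinocytes 0 of 10 members were at least 1.5-fold higher or lower in CIA+VFX than in CIA, beside 3.04% and 5.44% of 16329 genes. The median log2 ratio was -0.02 for the members and -0.02 for all measured genes. The widest difference in these sums was Dsg1a, at 88.8 CPM in CIA+VFX and 71.3 in CIA (log2 0.32, interval 0.25 to 0.38). With the classes weighted as in Cont the Dsg1a log2 ratio was 0.13, and the widest was that of Dsc1 (-0.28). Dsg3 was at 157 CPM in CIA+VFX and 176 in CIA (log2 -0.16), and Dsp at 971 in CIA+VFX and 979 in CIA (log2 -0.01). Dsg4 was at 12.2 CPM in CIA+VFX and 10.4 in CIA (log2 0.22), but -0.22 on the log2 scale with the classes weighted as in Cont.

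Dsg1a was at least 1.5-fold higher in CIA+VFX than in CIA in the basal, upper follicle and sebocyte classes. Dsc1 was 1.5-fold apart in the upper follicle and the companion layer, in opposite directions. In the basal class Dsg1a was the only 1 of 7 measured members at least 1.5-fold higher, beside 3.27% of genes, at 32.2 CPM in CIA+VFX and 16.9 in CIA (1.91-fold). In the upper follicle Dsg1a was at 114 CPM in CIA+VFX and 70.5 in CIA (1.62-fold) and Dsc1 at 53.1 in CIA+VFX and 27.0 in CIA (1.97-fold), 2 of 8 measured members beside 4.66% of genes. The Dsg1a difference was under 1.5-fold with equal weight per cell (log2 0.31) and after thinning (log2 0.50), and the Dsc1 difference changed sign after thinning (log2 -0.08). In the companion layer Dsc1 was 2.10-fold lower from 25 UMIs in CIA+VFX and 35 in CIA, beside 6.13% of genes, and under 1.5-fold after thinning (log2 -0.32). In the suprabasal class Dsg2 was 2.83-fold higher from 78 UMIs in CIA+VFX and 16 in CIA, beside 9.02% of genes, and under 1.5-fold with equal weight per cell (log2 0.58). In the inner root sheath Dsg4 was 1.51-fold lower from 46 UMIs in CIA+VFX and 30 in CIA, beside 2.92% of genes, with an interval that included no difference and a sign that changed after thinning (log2 0.69). No other measured member was 1.5-fold apart in these classes, where lower calls were 4.74% of genes in the basal, 5.99% in the suprabasal and 6.32% in the upper follicle class, and higher calls 3.23% in the companion layer and 6.12% in the inner root sheath. In the bulge and outer root sheath class (7 measured) and the matrix and hair shaft class (8 measured) none was, beside 3.02% and 7.16% of genes higher and 4.28% and 5.03% lower.

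In sebocytes Dsg1a was 3.54-fold higher, from 76 UMIs in CIA+VFX and 10 in CIA, and Dsg3 2.33-fold higher, from 155 in CIA+VFX and 31 in CIA, beside 7.22% of genes higher and 2.4% lower. The Dsg3 difference was under 1.5-fold in the middle bin by sebocyte markers (log2 0.21), and its highest log2 ratio among the alternatives was 2.48. The sebocyte level of Dsg1a was 8.61 CPM in CIA+VFX and 2.43 in CIA, and that of Dsg3 17.6 in CIA+VFX and 7.53 in CIA. Immune cells held 3.58 CPM of Dsg1a in CIA+VFX and 1.52 in CIA, and 3.20 CPM of Dsg3 in CIA+VFX and 2.18 in CIA. Sebocytes lay above them for both genes in both libraries, but the CIA interval of sebocyte Dsg1a (1.17 to 4.47 CPM) held the immune value. In Cont, sebocyte Dsg1a was at 0.56 CPM from 1 UMI, under the immune 2.06. Sebocyte Dsg3 in Cont was at 5.04 CPM from 9 UMIs, above the immune 2.35. Immune cells are not known to build desmosomes, so their UMIs are taken as background from free RNA and mixed droplets. At a depth of 2000 UMIs, 7.49% of CIA+VFX, 3.93% of CIA and 4.17% of Cont immune cells had a Dsp UMI, against 71.7% of CIA+VFX, 73.3% of CIA and 73.0% of Cont keratinocytes. Without thinning the shares were 15.7%, 9.21% and 12% of immune cells at median depths of 5075, 4886 and 5336.5 UMIs, and 87%, 87.6% and 91.6% of keratinocytes. Immune cells with a Dsp UMI were most frequent in CIA+VFX, and the part of such background in the sebocyte differences was not tested.

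Shares of cells with a UMI were also taken at equal depth. Thinning left out 846 CIA+VFX, 483 CIA and 287 Cont keratinocytes with too few UMIs. Dsg3 was seen in 21.3% of CIA+VFX, 22.7% of CIA and 17.3% of Cont keratinocytes, against 39.6%, 42.5% and 45.5% without thinning. Dsg1a was seen in 10.7% of CIA+VFX, 9.17% of CIA and 14.3% of Cont keratinocytes, against 26.8%, 21.6% and 35.8% without thinning. For Dsg3 the order of CIA and Cont at equal depth was that of the CPM, and the unthinned shares, with Cont the deepest, had the other order. Dsg2 was seen in 16.5% of CIA+VFX, 17.0% of CIA and 17.1% of Cont keratinocytes at equal depth, although its CPM was lower in CIA than in Cont. For Dsg4, Dsc1 and Dsc3 the shares in CIA+VFX (1.85%, 3.68% and 50.2%) and CIA (1.88%, 3.76% and 50.7%) differed by less than counting error and in the direction opposite to the CPM, so no order is read from them.

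Set against Cont, CIA+VFX had 0 of 10 members at least 1.5-fold higher, beside 10.8% of 16640 genes, and 1 lower, beside 3.79%. This was again Dsg4, at 12.2 CPM in CIA+VFX and 18.8 in Cont (1.54-fold lower, interval 1.41 to 1.68), which was under 1.5-fold after thinning and with equal weight per cell (log2 -0.53 in both), and it shares both libraries with the comparisons above. Weighted to the class mix of Cont the Dsg4 log2 ratio was -0.67, against -0.62 without weighting. Within classes the levels stand side by side as follows, since both comparisons share Cont. Dsg1b in the suprabasal class was at 116 CPM in CIA+VFX, 131 in CIA and 59.0 in Cont, and its log2 ratio of CIA+VFX to Cont was 0.02 after thinning. Dsg3 in the companion layer was at 286 CPM in CIA+VFX, 274 in CIA and 167 in Cont, and in the lowest marker bin the log2 ratio of CIA+VFX to Cont was -0.41. Dsg2 in the upper follicle was at 69.6 CPM in CIA+VFX, 75.0 in CIA and 119 in Cont. Dsc1 in the upper follicle was above Cont in CIA+VFX and below it in CIA, at 53.1 CPM in CIA+VFX, 27.0 in CIA and 41.2 in Cont. Dsg1a in the basal class likewise stood at 32.2 CPM in CIA+VFX, 16.9 in CIA and 19.0 in Cont, and its log2 ratio of CIA+VFX to Cont was negative in the lowest and middle marker bins (-0.05 and -0.31).

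Other junction genes were described from lists that leave out the members. Of 9 other desmosomal and envelope-plaque genes 8 were measured, and in CIA against Cont 1 was at least 1.5-fold higher and 1 lower, with a median log2 ratio of -0.05. Beside this and the next lists, 14.8% of all 16031 measured genes were higher and 5.03% lower. Cdsn, the corneodesmosome protein corneodesmosin, was at 6.30 CPM in CIA and 3.79 in Cont, and Ppl, the plakin periplakin, at 94.1 in CIA and 144 in Cont. The 10 adherens junction genes had none apart by 1.5-fold (median -0.20). Of 9 tight junction genes 2 were lower (median -0.12): Cldn4, a claudin, at 91.8 CPM in CIA and 164 in Cont, and Cldn7 at 1.37 in CIA and 2.34 in Cont.

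The list of 8 keratinocyte transcription factors had the lowest median in CIA against Cont among these lists, -0.51, with 2 lower, beside 5.03% of all measured genes, and none higher. Within classes its median ran between -0.53 (upper follicle, 5 of 8 measured) and -0.03 (matrix and hair shaft). None was past 1.5-fold in the matrix and hair shaft or the inner root sheath class (median -0.21). Shares of all measured genes follow in brackets. In the suprabasal class 3 of 7 were lower (24.6%) and 1 higher (11%), in the companion layer 3 of 8 lower (8.62%) and 2 higher (12.9%). In the basal class 2 of 7 were lower (6.22%) and 1 higher (15.1%), in the upper follicle 2 of 5 lower (12.5%). In the bulge and outer root sheath class 1 of 7 was lower (3.98%) and 2 higher (15.7%), in sebocytes 1 of 4 lower (20%). The inner root sheath class was 7.34% of CIA and 18.8% of Cont keratinocytes, and its part in the sums was not tested. Foxn1, which drives hair shaft differentiation and is mutated in nude mice, was at 15.3 CPM in CIA and 37.2 in Cont (2.43-fold lower). Grhl1, a grainyhead factor whose loss in mice lowers Dsg1 and impairs hair anchoring, was at 116 CPM in CIA and 196 in Cont (1.69-fold lower). In CIA+VFX against CIA, Cdsn was 2.32-fold lower (2.72 CPM in CIA+VFX and 6.30 in CIA), beside 5.44% of all measured genes. Lef1, a Wnt-responsive factor of the hair matrix, was 1.53-fold higher (81.0 in CIA+VFX and 53.1 in CIA), beside 3.04%. They were the only genes of these lists past 1.5-fold. In CIA+VFX against Cont, Ppl, Evpl (envoplakin, 29.7 CPM in CIA+VFX and 45.6 in Cont), Cldn4, Cldn7 and Foxn1 (18 in CIA+VFX and 37.2 in Cont) were lower by 1.5 to 2.07-fold, beside 3.79% of all measured genes.

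Patterns across the 24 pairs of class and library were compared by the Pearson correlation of log2(CPM + 10), given as a description, since pairs share libraries and depth. Among members, Pkp1 and Dsp ran together (r = 0.95), as did Dsg1a and Pkp1 (0.94) and Dsc3 and Dsp (0.93). The cadherin genes lie side by side in the RefSeq gene order as Dsc3, Dsc2, Dsc1, Dsg1c, Dsg1a, Dsg1b, Dsg4, Dsg3 and Dsg2, and neighbours did not always share a pattern. The neighbours Dsg1a and Dsg1b reached 0.88, a pair whose reads can be confused, whereas Dsg4 and Dsg3 gave -0.20, and Dsg3 and Dsg2 0.41. Dsg4 and Dsc2, which are not neighbours, reached 0.85, and Dsg2 and Dsc1 gave -0.65. Dsc2 averaged 5.72 CPM over the pairs, under the 10 added before the logarithm. Dsg4 averaged 264 CPM in the matrix and hair shaft class and 13.5 in the next class, so its correlations rest mainly on the pairs of that first class.

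Of 6591 candidate genes, those closest to each member were as follows. Dsg1a was nearest to Evpl and Jup, the gene of plakoglobin (both 0.95), Pkp1 to Dsp and Jup (both 0.95), and Dsp to Lypd3 (0.96) and Pkp1. Dsg4 was nearest to Gm49425 (0.98) and the hair keratin-associated gene Krtap8-1 (0.97). Dsg3 was nearest to Inava (0.94) and the adherens junction gene Ctnna1 (0.93), Dsg2 to Svil and Celf1 (both 0.95), and Dsc3 to Ezr and Akirin1 (both 0.94). Dsg1b was nearest to Rbp2 (0.92) and the desmosomal gene Perp (0.91), Dsc1 to Gpr160 (0.93) and Endou (0.91), and Dsc2 to Rnf149 (0.89) and Gpnmb (0.88).

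Since Dsp and Pkp1 had the closest pattern of any pair of members, the promoter of Dsp is shown for reference; it was the only member with a printable promoter in the RefSeq table used. It covers 250 bases before and 50 after the annotated start on the plus strand, at chr13:38151044-38151343 of GRCm38.p6, with GC boxes (GGGCGG on either strand) in capitals.
Dsp promoter: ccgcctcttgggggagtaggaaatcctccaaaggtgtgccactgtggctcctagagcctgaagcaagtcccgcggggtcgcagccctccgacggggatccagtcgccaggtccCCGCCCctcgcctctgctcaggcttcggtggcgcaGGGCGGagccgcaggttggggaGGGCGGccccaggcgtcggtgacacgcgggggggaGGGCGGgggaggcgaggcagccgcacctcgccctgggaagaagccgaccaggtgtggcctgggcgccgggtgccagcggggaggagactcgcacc
It held 4 GC boxes, starting at -137, -102, -80 and -45 from the start, and 35.7% of 32851 promoters of this length held at least 1. No AP-1 motif (TGANTCA, in 7.81% of promoters) and no grainyhead motif (AACCGGTT, in 0.146%) was found in this window on either strand.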

How the data were processed

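Each library's deposited matrix held raw UMI counts for genes and barcodes, the output of Cell Ranger 8.0.1 per the file headers. GRCm39 and FastQC 0.11.7 appear in the submitters' processing notes. Nothing recorded a correction for free RNA. The reference tables at hand were for GRCm38, so they served only for gene order and the promoter.

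Over all barcodes the libraries held 1.55e+08 (CIA+VFX), 1.31e+08 (CIA) and 1.43e+08 (Cont) UMIs. The cell filter asked for 500 or more genes and no more than 15% mitochondrial UMIs. Keratinocytes had at least 10 keratinocyte marker UMIs per 10000 (18 of 19 listed markers; Krt85 was not analysed here), more than of any list of immune, mesenchymal, endothelial, melanocyte, Schwann or muscle cells. No doublet caller was run: barcodes with at least 10 per 10000 UMIs of another list were left out (12.9% of gated CIA+VFX, 10.4% of CIA and 9.08% of Cont cells), and doublets of keratinocytes remained. Between 8 and 12 marker UMIs per 10000, near the gate, lay 203 CIA+VFX, 174 CIA and 115 Cont cells. A cell joined the class with its highest mean marker z-score (capped at 5) if that reached 0.25 and led by 0.2. Of 14454 keratinocytes 1296 lay within 0.05 of that lead.

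Sums of UMIs over the cells of a class in a library were scaled to CPM, with exact Poisson intervals (95%). Ratios had exact conditional binomial intervals and no pseudocount, and shares exact Clopper-Pearson intervals. A gene needed 50 UMIs over the pair of libraries to be measured, and was called at 1.5-fold. All members were named, listed junction genes past 1.5-fold, and the 2 genes most like each member among those with a mean of at least 20 CPM. Members and lists were chosen with earlier results of these data known. Alternatives covered scaling, filters, the gate, thinning to 2000 UMIs, subtraction of 5% free RNA and weighting of classes. Intervals were tested on simulated sums with Poisson counting error only, so variation between cells or libraries was not covered. Python 3.11.15, numpy 2.4.6, scipy 1.17.1, matplotlib 3.10.9 and, for scaling factors, R 4.3.3 with edgeR 4.0.16 were used.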

Additional observations from a re-analysis of the deposited data

Results flagged for a closer look

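Dsc1 differed in direction between classes under the same comparison. In CIA against Cont its log2 ratio was 0.86 in the suprabasal class and 0.60 in the inner root sheath, but -0.61 in the upper follicle. In CIA+VFX against CIA it was 0.98 in the upper follicle (-0.08 after thinning) and -1.07 in the companion layer, the last from 25 UMIs in CIA+VFX and 35 in CIA. With 1 library per group the difference between the classes was not tested.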

How the results depend on the processing

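No paired analysis was possible because each group had 1 library, and no library could be left out. Only Dsg4 was at least 1.5-fold lower in CIA than in Cont; this count of 1 became 2 with median-of-ratios scaling, 0 with the mean over cells and 0 with classes weighted as in Cont. After thinning the 1 member was Dsg1a, not Dsg4. The count of 1 in CIA+VFX against Cont became 0 with the mean over cells and 0 after thinning to 2000 UMIs. The other counts over all keratinocytes stayed at 0, and the medians of the members ranged over -0.33 to -0.05 in CIA against Cont, -0.10 to 0.02 in CIA+VFX against CIA and -0.26 to -0.04 in CIA+VFX against Cont. After thinning, the sign changed for Dsg1b in the companion layer, CIA against Cont (-0.0182), Dsg4 there (0.0482), Dsg4 in the inner root sheath, CIA+VFX against CIA (0.69) and against Cont (0.20), and Dsc1 in the upper follicle, CIA+VFX against CIA (-0.0797). In 3 bins by marker level, a division chosen after seeing the data, the sign changed in CIA against Cont for Dsg1b in the companion layer (lowest -0.68, highest -0.28), Dsg3 there (lowest -0.26), Dsg4 there (middle 0.48) and Dsc1 in the inner root sheath (lowest -0.80, middle -0.55). In CIA+VFX against Cont it changed for Dsg1a in the basal class (lowest -0.0533, middle -0.31), Dsg3 in the companion layer (lowest -0.41) and Dsc1 in the suprabasal class (middle -0.12). Bins and thinning use fewer UMIs; beyond that the cause was not tested. Of 618 alternative values of single genes, 40 changed sign, 25 of them over all keratinocytes. Of 366 alternative values for differences of at least 1.5-fold, 90 were under that limit. In CIA+VFX against CIA, Dsg1a in the basal and sebocyte classes stayed past it under each alternative computed. These were 10 alternatives for each class, against up to 12 for other results, because marker bins with too few UMIs were left out. The sebocyte ratio rests on 10 UMIs in CIA. Depth limits genes with few UMIs in a class: in the basal class Dsc1 and Dsg4 had 15 and 8 UMIs in CIA+VFX, 6 and 2 in CIA, and 1 and 2 in Cont.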
